A study of Mus musculus with 13 samples.

Results

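The small leucine-rich proteoglycans are secreted proteins of the extracellular matrix, and 9 of their genes are described here in mouse heart. They were chosen by gene symbol: Dcn, Bgn, Aspn, Lum, Fmod, Prelp, Omd, Ogn and Podn, of 36172 gene entries in the deposited count table. All 9 were present and all 9 passed the filter on low counts that left 13434 genes for testing. The choice was made with earlier results of the same libraries known, in particular those of infarcted against sham hearts. Comparisons with sham are therefore descriptions of the members: how many lay past the threshold used for all genes is counted, but no member's p is printed and nothing is supported by these counts.

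RNA came from left ventricular tissue outside the ischemic area of C57BL/6JO1aHsd mice that were 8 to 10 weeks old when treatment began. The sham group (n = 3) had sham surgery and no treatment. The IgG group (n = 5) had the left anterior descending artery (LAD) permanently ligated, which causes a myocardial infarction (MI), and received 10 mg/kg of an antibody labelled mouse anti IgG ab. The FG-3149 group (n = 5) had the same ligation and received 10 mg/kg of FG-3149, a mouse monoclonal antibody that targets CTGF, the connective tissue growth factor made from Ctgf. The time point of all 3 groups is labelled 1W+6W, which the labels do not spell out. The series' design text speaks of animals, and each library was taken as a separate animal.

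Proteins of this family share a core of leucine-rich repeats, and most of them bind collagen and affect how collagen fibrils assemble. Decorin and biglycan carry chondroitin or dermatan sulfate chains and also bind growth factors such as transforming growth factor beta. Lumican, fibromodulin and osteomodulin can carry keratan sulfate instead. In the heart the family is made largely by fibroblasts.

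Several members lie side by side in the genome (mm10 coordinates of the deposited table). Dcn (chr10:97479500-97518162) and Lum (chr10:97565501-97572703) are on the plus strand of chromosome 10, followed by the family genes Kera and Epyc. Aspn (chr13:49544443-49567562), Omd (chr13:49582747-49592609) and Ogn (chr13:49608071-49624500) follow Ecm2 on the plus strand of chromosome 13. Prelp (chr1:133910304-133921401, minus strand) and Fmod (chr1:134037515-134048277, plus strand) are on chromosome 1. Bgn (chrX:73483635-73495936, plus strand) and Podn (chr4:108014793-108032090, minus strand) stand alone. Cenpp, a centromere protein gene on the minus strand, spans Aspn, Omd, Ogn and Ecm2. It held 25 to 65 counts per library, and the handling of strand, by which its reads would be kept apart from the members', was not stated in what was used here.

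The 250 bases before the RefSeq start (GRCm38.p6) are shown for Aspn and Ogn, which lie on either side of Omd on chromosome 13 and whose levels took different courses in the infarcted hearts, and for Fmod, the member with the highest fold over sham. Capitals mark matches to any of 4 motifs on either strand: TGANTCA (AP-1), GGAATG (TEAD), CAGACA (SMAD) and TATAAA. The windows run from chr13:49544193-49544442 for Aspn, chr13:49607765-49608014 for Ogn and chr1:134037004-134037253 for Fmod, all on the plus strand.
Aspn: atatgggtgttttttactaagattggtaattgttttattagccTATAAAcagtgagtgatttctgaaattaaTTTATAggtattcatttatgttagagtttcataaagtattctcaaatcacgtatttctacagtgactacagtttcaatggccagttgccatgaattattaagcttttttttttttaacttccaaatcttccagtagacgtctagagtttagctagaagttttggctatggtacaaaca
Ogn: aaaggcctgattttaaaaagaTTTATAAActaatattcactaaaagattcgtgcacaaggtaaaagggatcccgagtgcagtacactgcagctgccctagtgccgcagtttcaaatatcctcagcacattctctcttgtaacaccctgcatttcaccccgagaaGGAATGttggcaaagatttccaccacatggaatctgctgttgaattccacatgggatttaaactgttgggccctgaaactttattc
Fmod: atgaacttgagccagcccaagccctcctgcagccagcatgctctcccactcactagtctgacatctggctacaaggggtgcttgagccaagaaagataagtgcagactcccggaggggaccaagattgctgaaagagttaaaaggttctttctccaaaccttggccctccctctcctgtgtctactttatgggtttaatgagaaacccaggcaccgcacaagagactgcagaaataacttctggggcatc
The Aspn window held TATAAA on the plus strand 207 bases before the start and on the minus strand 178 bases before it. The Ogn window held GGAATG 86 bases before the start, and TATAAA on both strands at 229 and 227 bases, as overlapping matches. The Fmod window held none of the 4. Among 32851 RefSeq windows of this length, TGANTCA was in 6.749%, GGAATG in 12.64%, CAGACA in 17.13% and TATAAA in 12.37%. Of the 9 members, 7 had an entry in the promoter table. A match describes the letters only.

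Levels of different genes can be compared only per length, and the deposited RPKM values (reads relative to transcript length and library depth, summed over a gene's transcripts) were used for that. In sham hearts Dcn, which encodes decorin, was by far the most abundant member at 322 ± 15.9 RPKM (mean ± SD, n = 3). Bgn (74.8 ± 6.50 RPKM) and Ogn (66.6 ± 11.2 RPKM) followed, with overlapping libraries. The next in order were Lum (29.8 ± 3.42 RPKM), Prelp (18.1 ± 0.613 RPKM), Aspn (11.7 ± 1.47 RPKM), Podn (4.70 ± 0.209 RPKM), Omd (2.85 ± 0.193 RPKM) and Fmod (0.211 ± 0.0316 RPKM). From Ogn downward, no neighbours in this order overlapped.

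The summed RPKM of the 9 members was 531 ± 26.3 in sham, 1096 ± 153 in IgG (n = 5) and 874 ± 60.1 in FG-3149 hearts (n = 5). The family total of every IgG library, 982 to 1359 RPKM, lay above that of every FG-3149 library, 799.98 to 939 RPKM, and both lay above sham, 513 to 561 RPKM. Most of this total was Dcn and Bgn, and neither passed the threshold between FG-3149 and IgG (below). In the scaled counts given below, the IgG and FG-3149 libraries of both genes overlapped. The total therefore does not show that each member was lower in FG-3149. The make-up of that total also differed between sham and infarcted hearts. Dcn made up 60.7% ± 1.13 of it in sham, 47.9% ± 3.03 in IgG and 48.9% ± 1.74 in FG-3149. Bgn made up 14.1% ± 1.56, 30.4% ± 3.36 and 29.6% ± 1.08. Ogn made up 12.5% ± 1.53, 5.41% ± 0.733 and 5.85% ± 0.421. For Dcn, Bgn and Ogn the sham shares did not overlap those of either infarcted group, while the shares of IgG and FG-3149 overlapped.

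**Figure D1:**
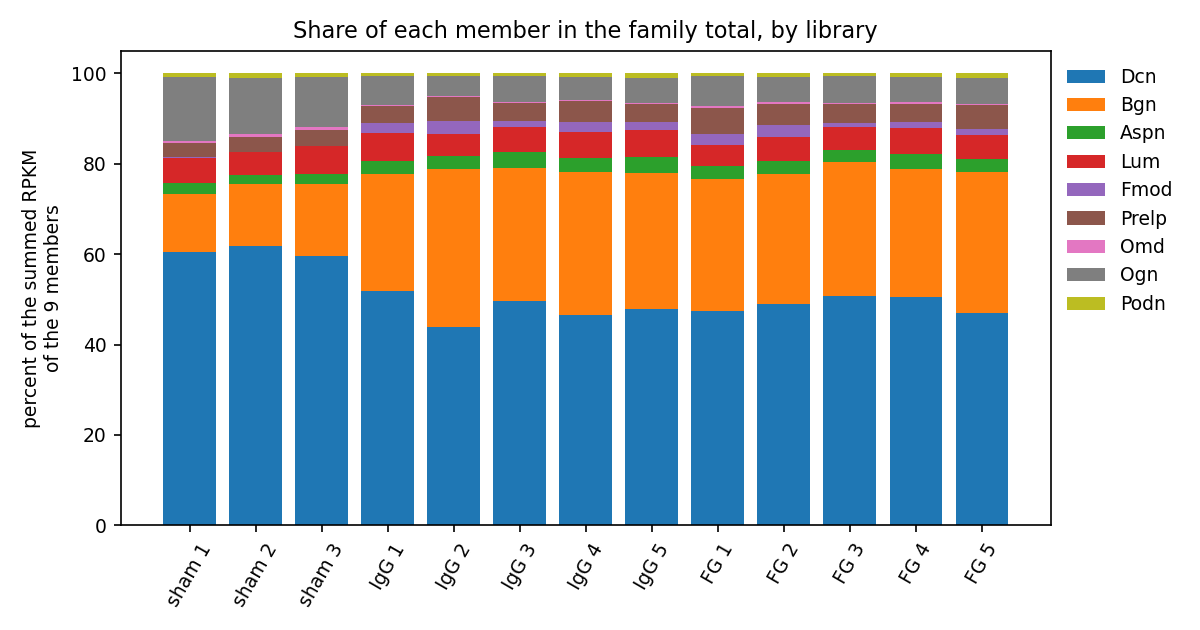
Share of each member (percent, y axis) in the summed RPKM of the 9 members, for each library (x axis). Dcn takes 59.6% to 61.9% in sham libraries and 43.8% to 51.9% in infarcted ones, and Bgn 12.8% to 15.9% and 25.8% to 35.1%.

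Within the infarcted hearts the order by RPKM was less distinct. In IgG libraries Dcn (523 ± 49.2 RPKM) and Bgn (336 ± 82.4 RPKM) overlapped, since Bgn reached 476 RPKM in IgG replicate 2. Lum (61.9 ± 5.57 RPKM), Ogn (58.6 ± 5.74 RPKM), Prelp (48.1 ± 14.1 RPKM), Aspn (34.9 ± 4.10 RPKM) and Fmod (22.6 ± 8.99 RPKM) each overlapped their neighbour. Podn (7.57 ± 1.85 RPKM) and Omd (3.06 ± 0.363 RPKM) stood below them. Fmod, the lowest member in sham, was thus seventh in IgG hearts. In FG-3149 libraries the order was the same apart from Ogn (51.3 ± 6.72 RPKM) and Lum (45.8 ± 1.75 RPKM), which exchanged places and overlapped.

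Members were next followed between groups as CPM, counts scaled to the library total with TMM factors, and fold changes are log2 with their standard error (SE) from edgeR's quasi-likelihood fit. The threshold for a call was 0.05 for the p adjusted by Benjamini-Hochberg over all 13434 genes. Depth ran from 12025880 to 14999813 estimated counts per library in sham, from 13084735 to 17567238 in IgG and from 10954922 to 12794823 in FG-3149, so every IgG library was deeper than every FG-3149 library. Cardiomyocyte markers (8 genes) summed to 82209.4 to 90270.4 CPM in sham, 67590.2 to 74363.2 in IgG and 71440.9 to 77725 in FG-3149. The share of exon reads in the 5′ exons, those before the midpoint of a gene's exon order, had a median over 3427 genes with 1 transcript that was 22.3% to 23.2% in sham, 23.9% to 25.9% in IgG and 26.4% to 27.7% in FG-3149. These ranges do not overlap, so the position of reads along transcripts moved with the groups, and its part in the results below was not tested except by exon.

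Between IgG and sham hearts, 7 members were past the threshold as higher (Dcn, Bgn, Aspn, Lum, Fmod, Prelp and Podn), 0 as lower, and Ogn and Omd were not. Of all genes, 17.8% were called higher and 15.9% lower. For 7 members every IgG library lay above every sham library, as it did for 18.2% of all genes. The median log2 fold change was 1.04 over the members and -0.00 over all genes. Because the members were chosen with this contrast known, nothing is read from these counts. Markers of some other cell types also differed from sham. In IgG against sham, 1 of 6 endothelial markers was called higher and 2 lower. Of 6 smooth muscle and pericyte markers, 2 were called higher and 0 lower. Both Schwann cell markers tested were called lower, and 0 of 2 adipocyte markers were called. Cardiomyocyte markers, whose sums are given above, were lower in both infarcted groups without overlap with sham, and 5 of 8 were called lower in each. Macrophage markers (5 genes) summed to 141 to 149 CPM in sham, 191 to 312 in IgG and 194 to 318 in FG-3149, and 4 of 5 were called higher in each. Their part in the members' differences was not tested. In bulk tissue, more cells of a type and more RNA per cell cannot be told apart.

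FG-3149 hearts were set against the same sham libraries, so the values of both comparisons share their controls. There, 6 members were called higher (Dcn, Bgn, Aspn, Lum, Fmod and Prelp) and 1, Ogn, lower, while Omd and Podn did not pass. Of all genes, 15.6% were called higher and 13.9% lower. The members' median log2 fold change was 0.63 against -0.00 over all genes. Without overlap with sham, 7 members were higher, including Podn, where the share over all genes was 16.6%.

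The comparison of FG-3149 with IgG, both after ligation, asks what the CTGF antibody changed. Lum and Aspn fell, with every FG-3149 library below every IgG library. No member rose and 7 did not pass, while 1.07% of all genes were called (0.916% higher, 0.156% lower). Libraries of both groups were fully separated in 1.24% of all genes in the lower and 1.9% in the higher direction. Of the 9 log2 fold changes, 8 were below 0, as were 54.1% of those of all genes, and the median was -0.26 against -0.01. The unadjusted p was under 0.05 for 4 members (Lum, Aspn, Dcn and Bgn) and for 13.8% of all genes. Ctgf itself, whose protein is the antibody's target, was at 42.5 ± 4.58 CPM in sham, 324 ± 74.3 in IgG and 248 ± 57.1 in FG-3149. Its log2 difference between FG-3149 and IgG was -0.39 ± 0.19 (edgeR adjusted p = 0.394).

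**Figure D2:**
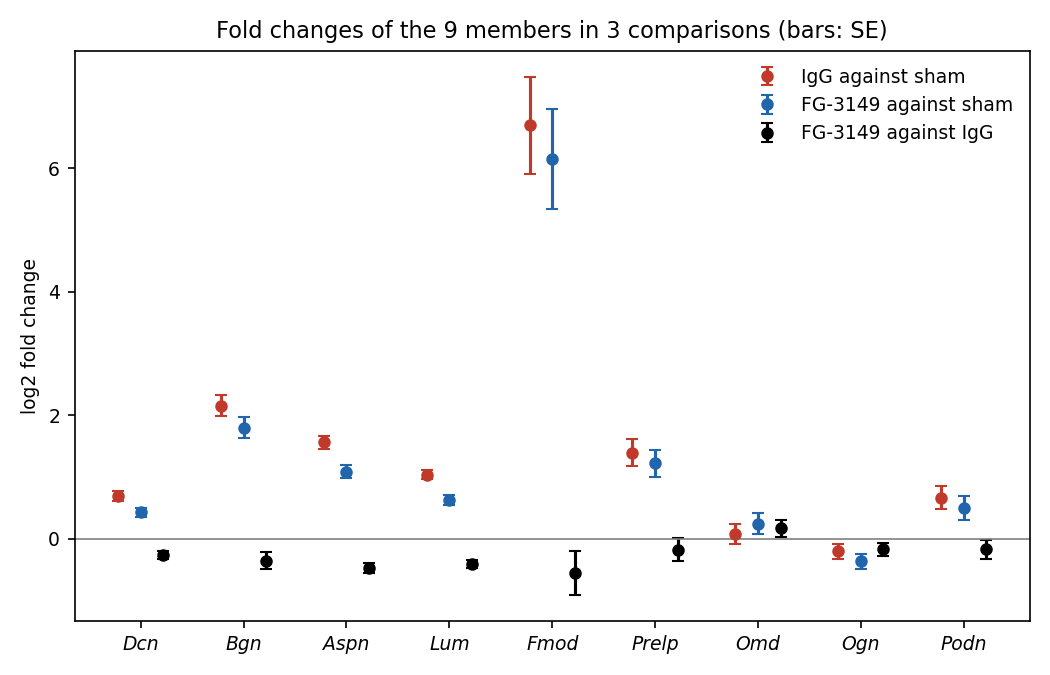
Log2 fold change (y axis) of the 9 members (x axis) in 3 comparisons, with bars of 1 SE from the edgeR fit to all 13 libraries. Fmod stands highest in both comparisons with sham, at 6.70 and 6.14, and the FG-3149 values against IgG run from -0.55 for Fmod to 0.17 for Omd.

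Aspn encodes asporin, a member with a run of aspartate residues that binds collagen and transforming growth factor beta. Its level was 30.3, 24.1 and 28.3 CPM in the sham libraries. It was 69.6, 86.2, 91.3, 70.3 and 89.3 CPM in IgG replicates 1 to 5 and 59.8, 60.8, 54.6, 62.5 and 55.1 CPM in FG-3149 replicates 1 to 5. The 3 groups did not overlap, and the FG-3149 libraries lay between the other groups. Aspn was 2.96-fold higher in IgG than in sham (log2 1.56 ± 0.10) and 2.13-fold higher in FG-3149 than in sham (log2 1.09 ± 0.10). Between FG-3149 and IgG, Aspn fell by 0.47 ± 0.08 on the log2 scale (edgeR adjusted p = 0.00767), lower in 5 of 5 libraries than the lowest IgG library. Over 22 alternative settings the adjusted p ranged from 6.5e-05 to 0.036.

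Lum encodes lumican, a keratan sulfate proteoglycan that limits the thickness of collagen fibrils. Its sham libraries held 65.3, 54.5 and 65.7 CPM. IgG replicates 1 to 5 held 126, 141, 123, 109.8 and 137 CPM, and FG-3149 replicates 1 to 5 held 92.6, 98.1, 98.4, 97.7 and 92.8 CPM. The 3 groups again did not overlap, with FG-3149 in between. The FG-3149 libraries were also close to each other, with a coefficient of variation of 3.09% against 9.76% in IgG. Lum was 2.06-fold higher in IgG than in sham and 1.55-fold higher in FG-3149 than in sham (log2 0.63 ± 0.08). Between FG-3149 and IgG, Lum fell by 0.41 ± 0.07 on the log2 scale (edgeR adjusted p = 0.00393), and over the 22 alternatives the adjusted p ranged from 1.5e-05 to 0.0146.

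Dcn lies next to Lum and encodes decorin, which coats collagen fibrils and binds transforming growth factor beta. Its level was 621, 593 and 567 CPM in sham. It was 940.1, 1093, 981, 822 and 959 CPM in IgG replicates 1 to 5 and 827, 816, 864, 763 and 733 CPM in FG-3149 replicates 1 to 5. All infarcted libraries lay above sham, and IgG replicate 4 lay below FG-3149 replicates 1 and 3. The log2 fold change was 0.69 ± 0.08 for IgG and 0.43 ± 0.08 for FG-3149 against sham. Against IgG, the FG-3149 value was -0.26 ± 0.06 (edgeR adjusted p = 0.056), just outside the threshold. Over the 22 alternatives it stayed negative, from -0.31 to -0.21, with adjusted p from 0.0156 to 0.172. It passed with DESeq2 (0.0156), without IgG replicate 4 (0.0174), with the replicate number as a block (0.0259) and with no filter on low counts (0.0385).

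Bgn encodes biglycan, the closest relative of decorin, which can also signal through Toll-like receptors once released from the matrix. Its level was 171, 170.3 and 196 CPM in sham. It was 606, 1126, 753, 719 and 778 CPM in IgG replicates 1 to 5 and 662, 621, 653, 554 and 628 CPM in FG-3149 replicates 1 to 5. Every infarcted library held 554 CPM or more, far above sham, and IgG replicate 2 stood highest. The fold over sham was 4.45 in IgG (log2 2.15 ± 0.17) and 3.49 in FG-3149 (log2 1.80 ± 0.17). FG-3149 and IgG differed by log2 -0.35 ± 0.14 (edgeR adjusted p = 0.277), and -0.19 without IgG replicate 2.

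Fmod encodes fibromodulin, which binds collagen near the site used by lumican and affects its cross-linking. Sham libraries held 0.636, 0.677 and 0.497 CPM, from only 8, 10 and 6 counts. IgG replicates 1 to 5 held 59.2, 105, 37.4, 64.0 and 53.8 CPM, and FG-3149 replicates 1 to 5 held 68.2, 65.1, 23.4, 27.1 and 33.7 CPM. The gene was thus close to undetected in sham and clearly present in all infarcted libraries, which varied widely and overlapped. Its coefficient of variation was 39.4% in IgG and 49.4% in FG-3149, the highest of the 9 members in both groups. The log2 fold change over sham was 6.70 ± 0.78 in IgG and 6.14 ± 0.81 in FG-3149, and rests on those few sham counts. It was 4.21 and 3.61 on log2(RPKM + 1), a scale that compresses low levels, and over 20 alternatives it ran from 4.21 to 6.91 for IgG and from 3.61 to 6.31 for FG-3149. Against IgG, FG-3149 gave -0.55 ± 0.35 (edgeR adjusted p = 0.539), from -0.77 without FG-3149 replicate 1 to -0.29 without IgG replicate 2.

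Prelp encodes a proline- and arginine-rich member whose basic end binds heparin and heparan sulfate. Its level was 64.9, 63.8 and 67.0 CPM in sham. It was 133, 259.5, 154, 157 and 153 CPM in IgG replicates 1 to 5 and 193, 156, 135, 122 and 155 CPM in FG-3149 replicates 1 to 5. Infarcted libraries lay above sham, and IgG and FG-3149 overlapped. The log2 fold change over sham was 1.40 ± 0.22 in IgG and 1.22 ± 0.22 in FG-3149. FG-3149 and IgG differed by -0.17 ± 0.18 (edgeR adjusted p = 0.735), and without IgG replicate 2 the sign turned, to 0.028.

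IgG replicate 2 was the highest of the 10 infarcted libraries for 5 members (Lum, Dcn, Bgn, Fmod and Prelp). The same library was highest for Ctgf at 439 CPM and for Postn, which encodes the matrix protein periostin, at 837 CPM. Within FG-3149, replicate 1 was the highest library for 5 members (Bgn, Fmod, Ogn, Omd and Prelp).

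Podn encodes podocan, a more distant member that binds collagen. Its level was 14.4, 15.9 and 14.5 CPM in sham, 16.8, 22.4, 21.8, 24.9 and 33.0 CPM in IgG replicates 1 to 5, and 18.6, 20.5, 17.0, 23.6 and 25.9 CPM in FG-3149 replicates 1 to 5. Every infarcted library exceeded the highest sham library, by little in IgG replicate 1. The log2 fold change over sham was 0.66 ± 0.19 in IgG and 0.50 ± 0.19 in FG-3149. The IgG value was past the threshold, but not without sham replicate 1 or 3. The FG-3149 value was not past it, but was with DESeq2, without robust dispersions, with only these 2 groups in the fit, with the replicate block and without FG-3149 replicate 3. FG-3149 and IgG differed by -0.17 ± 0.16 (edgeR adjusted p = 0.697), from -0.26 without IgG replicate 1 to -0.027 without IgG replicate 5.

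Ogn encodes osteoglycin (mimecan), a small member of another class. Like Omd, described next, it was not called higher than sham in either infarcted group. Sham libraries held 199, 165 and 144 CPM. IgG replicates 1 to 5 held 159.95, 153, 154, 120.3 and 151 CPM, and FG-3149 replicates 1 to 5 held 156, 129, 139, 112 and 123 CPM. All 3 groups overlapped. The log2 fold change was -0.20 ± 0.12 for IgG and -0.36 ± 0.12 for FG-3149 against sham. The latter was past the threshold, but not without sham replicate 1 or 2, or without FG-3149 replicate 2, 3, 4 or 5. Nor was it with no filter on low counts or with only these 2 groups in the fit. Set against IgG, the FG-3149 value was -0.17 ± 0.11 (edgeR adjusted p = 0.528).

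Omd encodes osteomodulin, a keratan sulfate member best known from bone. Its level was 4.61, 5.42 and 4.97 CPM in sham, 5.01, 5.07, 4.59, 5.77 and 6.07 CPM in IgG replicates 1 to 5, and 8.29, 5.35, 5.09, 5.68 and 5.37 CPM in FG-3149 replicates 1 to 5. The groups overlapped, with FG-3149 replicate 1 above the rest. The log2 fold change was 0.08 ± 0.16 for IgG and 0.25 ± 0.17 for FG-3149 against sham, and 0.17 ± 0.14 between FG-3149 and IgG (edgeR adjusted p = 0.648), and the last was 0.022 without FG-3149 replicate 1. Its reads were unevenly placed: exon 2, of 176 bases, held 52.7% to 82.2% of them, and exon 1 held none in any library. The other exons differed from exon 2 in direction. The log2 ratio of mean CPM of IgG over sham was -0.11 in exon 2, 0.38 in exon 3 and 0.57 in exon 4. For FG-3149 over IgG it was 0.38, -0.04 and -0.51. Exons 3 and 4 held few reads, with group means of at most 1.08 CPM.

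**Figure D3:**
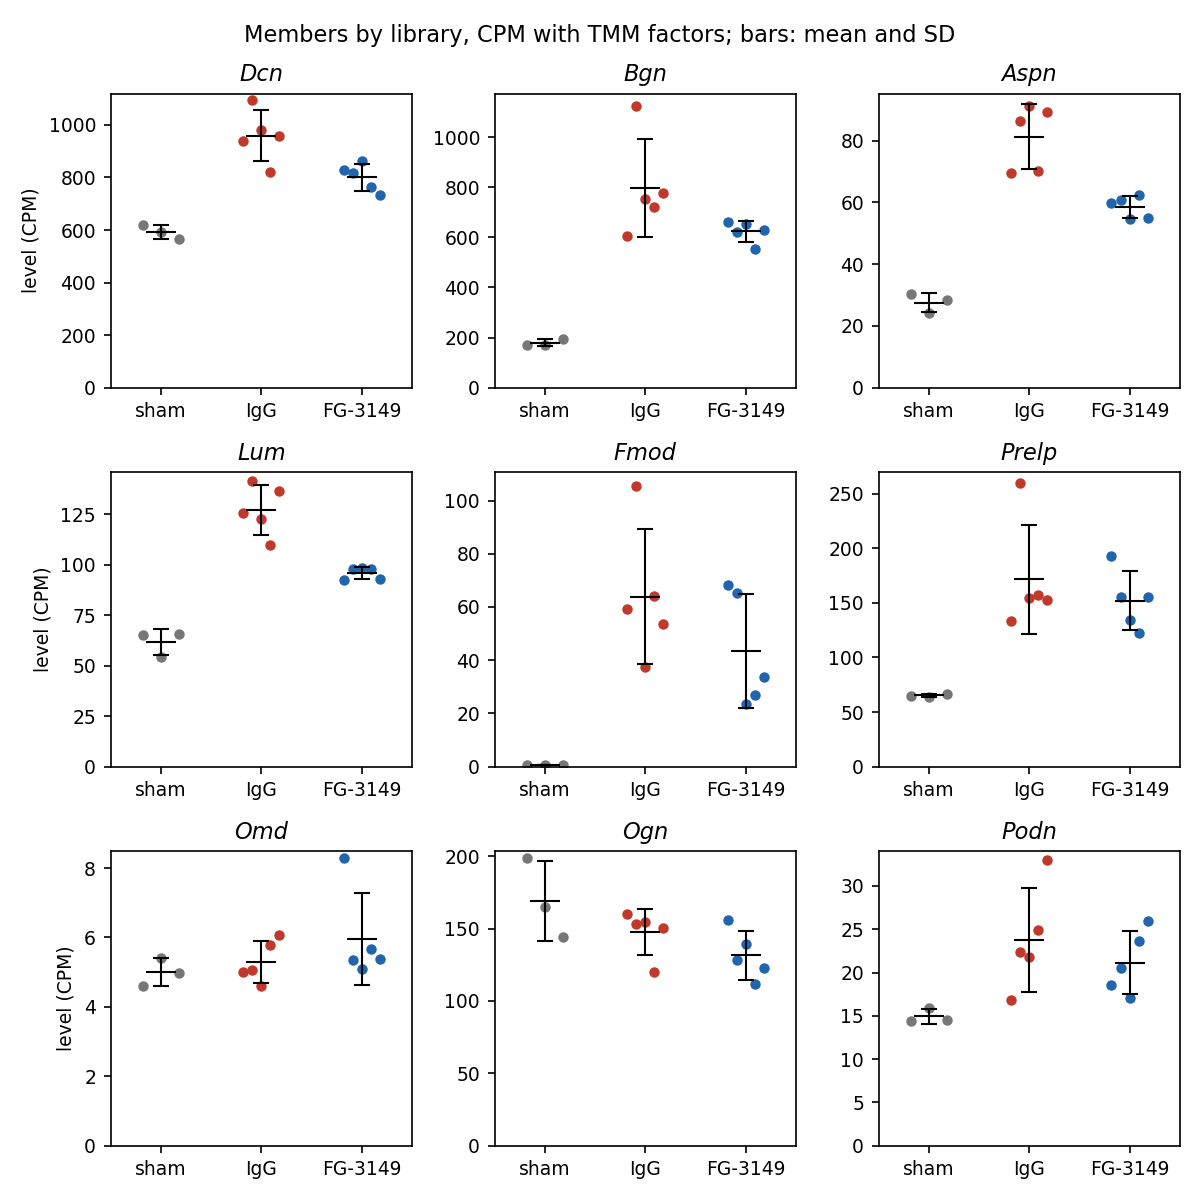
Level of each member in CPM (y axis, from 0) for every library of the 3 groups (x axis), with the mean and SD of each group as bars. Lum and Aspn show 3 groups without overlap, Fmod has a mean of 0.603 CPM in sham and 63.9 in IgG, and Ogn and Omd overlap in all groups.

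The deposited table also gives counts by exon, which show where along each gene the differences lay. Between IgG and sham, the exons of Lum moved together, with log2 ratios of mean CPM from 1.01 to 1.06, as did those of Bgn, from 2.06 to 2.32. Dcn ran from -0.14 in its downstream first exon to 1.10 in its upstream one, with the exons both transcripts share between 0.56 and 0.82. Ogn ran from -0.86 to 1.32, the latter in its first exon with a mean of 0.174 CPM in sham and 0.434 in IgG. In the contrast of FG-3149 with IgG, the first exons of Lum and Bgn departed from the others. The ratio of Bgn was 0.48 in exon 1, a small part of its reads (9.96 CPM in IgG and 13.9 in FG-3149). It ran from -0.47 to -0.30 in all other exons of Bgn, and was -0.39 and -0.52 in exons 2 and 3 of Lum. Among end exons with a mean of at least 0.5 CPM in a group, the last exon had a ratio below 0 in 9 of 9 members, against 68.8% of 3422 genes with 1 transcript. The first exon had a ratio above 0 in 5 of 6 members, against 97.2% of 2587 such genes. The median ratio over these genes was 1.02 for first exons and -0.05 for last exons. The last exon of Lum held 42.3 ± 4.41 CPM in IgG and 29.5 ± 2.41 in FG-3149 (log2 -0.52), and that of Aspn 25.6 ± 1.38 and 17.4 ± 1.62 (log2 -0.56), both without overlap. The first exon of Lum, a small part of its reads, held 1.32 ± 0.287 CPM in IgG and 2.49 ± 0.441 in FG-3149 (log2 0.92), without overlap in the opposite direction and near the median of all first exons. In Aspn the ratio was below 0 for all 9 exons, from -0.58 to -0.05. Since 8 of the 9 members were below 0 over the whole gene, the sign of their last exons does not by itself show a shift along the gene. In each of the 6 members with such a first exon, its ratio lay above that of the whole gene, as in Prelp (0.77 against -0.17). Reads thus shifted toward the first exon in these 6, as they did toward the 5′ part over all genes. How much of the gene-level difference of Lum and Aspn comes with this shift was not tested.

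**Figure D4:**
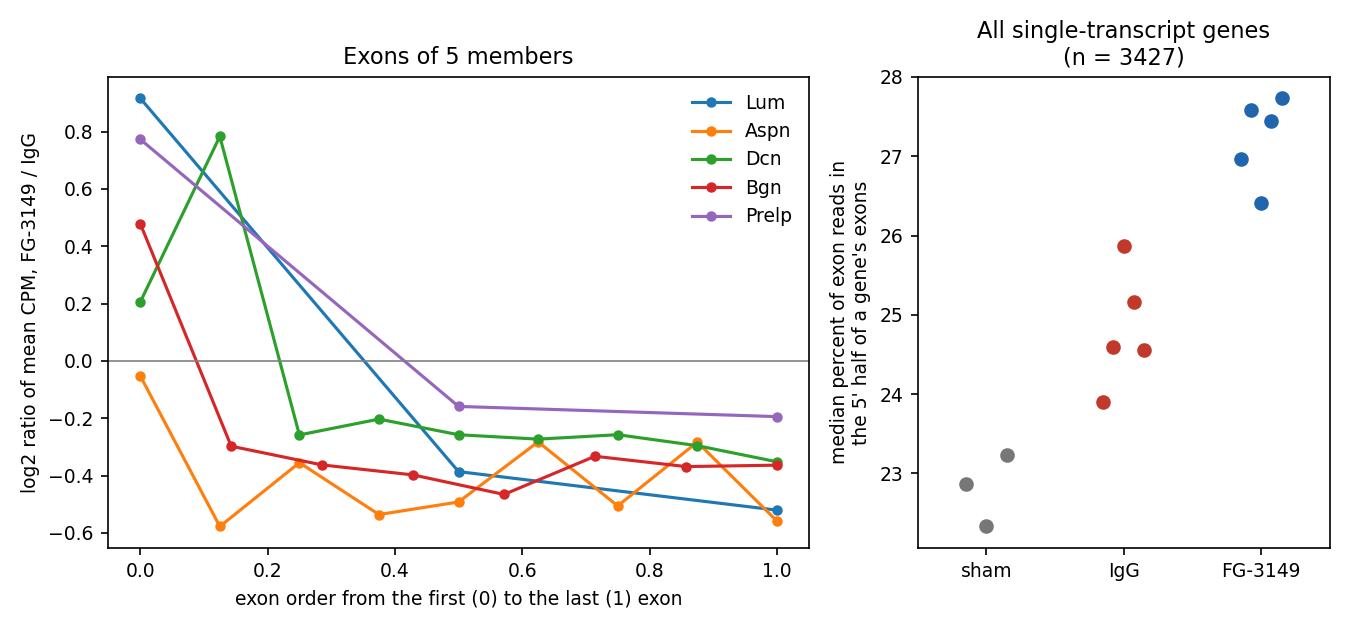
Left: log2 ratio of mean CPM, FG-3149 over IgG (y axis), for each exon of 5 members in order from first to last (x axis). Right: median percent of exon reads in the 5′ exons (y axis) over 3427 genes for each library, where the highest IgG library (25.9%) lies below the lowest FG-3149 library (26.4%).

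Dcn has 2 annotated transcripts that differ in their first exon and share the rest. NM_001190451 begins upstream (chr10:97479500-97479789) and NM_007833 begins downstream (chr10:97482350-97482547). The upstream first exon held 14.4 ± 0.295 CPM in sham, 30.9 ± 3.93 in IgG and 35.6 ± 2.65 in FG-3149. The downstream first exon held 4.21 ± 0.044 CPM in sham, 3.83 ± 0.136 in IgG and 6.58 ± 1.06 in FG-3149. Both first exons thus had a higher mean in FG-3149 than in IgG, the downstream one by more (log2 0.78 against 0.21). Both ratios were below the median of 1.02 over first exons of genes with 1 transcript, of which 97.2% had a ratio above 0. As a share of the counts of both first exons, the upstream exon had 76.9%, 77.6% and 77.8% in sham, 87.0%, 90.2%, 89.0%, 88.5% and 89.7% in IgG replicates 1 to 5, and 84.2%, 83.7%, 83.2%, 84.5% and 86.8% in FG-3149 replicates 1 to 5. The 3 groups did not overlap, and both infarcted groups had a higher share than sham. The share of reads in 5′ exons over all genes, given above, also separated the 3 groups, and its part in this share of Dcn was not tested. The mean share in FG-3149 was 4.41 percentage points below that in IgG, with the higher count of the downstream exon.

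The share that the authors' estimated counts assign to the upstream transcript gave another picture for the antibody. It was 51.2% ± 0.171 in sham, 64.3% ± 3.96 in IgG and 68.1% ± 2.80 in FG-3149, so the mean in FG-3149 was 3.86 percentage points above IgG, with overlapping libraries. The share of first exon counts was not scaled to exon length (290 and 198 bases), so the levels of the 2 measures are not comparable. Both measures put the infarcted groups above sham, and they disagree in sign between FG-3149 and IgG. They were chosen after the exon counts had been seen, so no test is given.

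**Figure D5:**
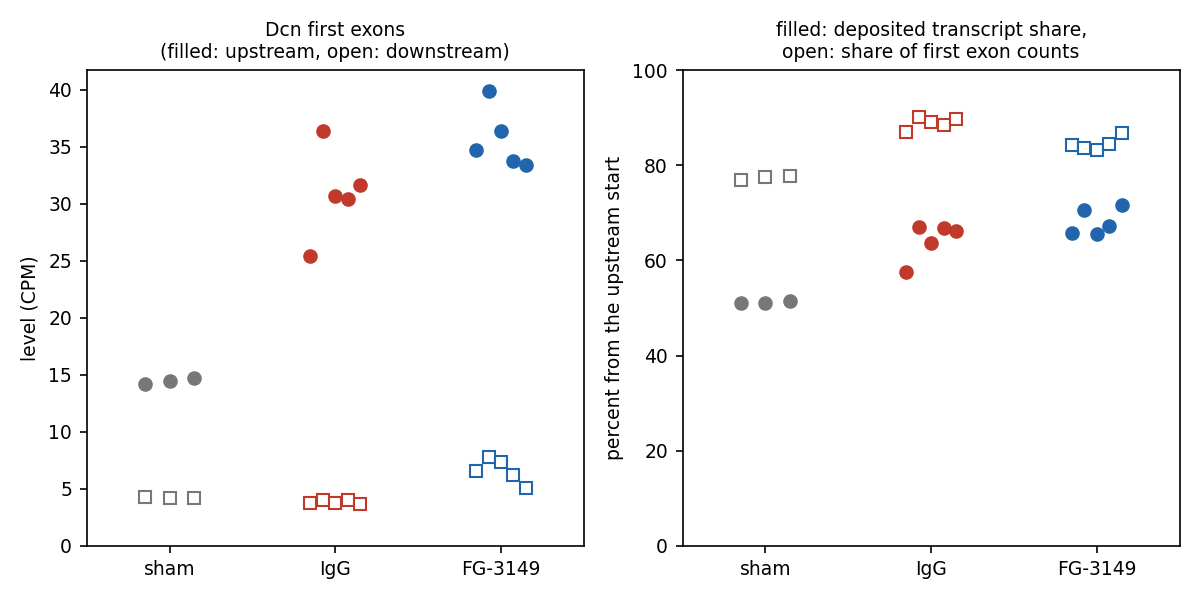
Left: CPM (y axis) of the upstream (filled) and downstream (open) first exon of Dcn for each library. Right: percent from the upstream start (y axis), as the deposited transcript share (filled) or as the share of first exon counts, not scaled to exon length (open). By first exon counts, FG-3149 libraries lie at 83.2% to 86.8%, below the IgG libraries at 87.0% to 90.2%.

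Of the 9 other genes of the family, 5 had enough counts to be tested. Kera was at 0 counts in all 13 libraries, and Epyc, Optc and Podnl1 had means of at most 0.183 CPM in every group. Tsku, which encodes the secreted protein tsukushi, was at 2.34 ± 0.0574 CPM in sham and 5.95 ± 1.27 in IgG. Chad, which encodes the cartilage protein chondroadherin, was at 0.330 ± 0.0882 and 1.52 ± 0.522 CPM. Ecm2, next to Aspn, was at 43.4 ± 4.19 and 56.9 ± 6.10 CPM. These 3 of the 5 were called higher in IgG than in sham, beside 17.8% of all genes, and Chadl and Nyx did not pass. Between FG-3149 and IgG 0 of the 5 were called by edgeR, by DESeq2 or by limma voom, with 2 at an unadjusted p under 0.05, Ecm2 (log2 -0.24 ± 0.08) and Tsku (log2 -0.46 ± 0.17).

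Genes that work with the family were counted in the same fit. Of 15 fibrillar and fibril-associated collagen genes, 10 rose and 1 fell in IgG against sham, beside 17.8% and 15.9% of all genes. Those that rose included Col12a1 (log2 6.05 ± 0.69), Col14a1 (2.11 ± 0.27), Col1a2 (1.38 ± 0.18) and Col6a2 (0.63 ± 0.10). The value of Col12a1 rests on a low level in sham, 0.567 ± 0.505 CPM. Of 20 genes for chondroitin and dermatan sulfate synthesis, 6 rose and 0 fell, including the polymerizing factors Chpf (1.09 ± 0.09) and Chpf2 (0.75 ± 0.09), the epimerase Dse (0.98 ± 0.14) and the sulfotransferase Ust (1.12 ± 0.21). Of 8 genes for keratan sulfate synthesis and tyrosine sulfation, 1 rose, the galactosyltransferase B4galt1 (0.30 ± 0.08). So the list for chondroitin and dermatan sulfate chains, as carried by decorin and biglycan, had 6 of 20 called. The list for keratan sulfate and tyrosine sulfation had 1 of 8, and of all genes 33.7% were called in either direction.

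Among 18 receptors and ligands that decorin or biglycan bind, 14 rose and 1 fell in IgG against sham, beside 17.8% and 15.9% of all genes. They included Ctgf (2.93 ± 0.25), the CTGF relative Wisp1 (2.01 ± 0.25), the hepatocyte growth factor receptor Met (1.85 ± 0.21) and Tgfb3 (1.72 ± 0.19). Of 13 proteases and their enhancers, 4 (beside the same 17.8%) rose and 0 fell: Mmp2 (1.08 ± 0.11), the procollagen C-proteinase enhancer Pcolce (0.93 ± 0.12), Mmp3 (0.80 ± 0.27) and Bmp1 (0.33 ± 0.08), which trims the propeptide of biglycan. Between FG-3149 and IgG, 0 of the 79 tested genes of these 5 lists and the other family genes were called by edgeR, by DESeq2 or by limma voom, and 14 had an unadjusted p under 0.05, where 13.8% of all genes did. Among the 14 were Chpf2 (-0.28 ± 0.08), the biglycan receptor Tlr4 (-0.28 ± 0.08), Wisp1 (-0.55 ± 0.18) and Mmp2 (-0.25 ± 0.09). Chst7 (0.33 ± 0.13) and Tpst2 (0.16 ± 0.07), also among them, were higher in FG-3149.

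Markers of the cell types in the tissue were read beside the members. Fibroblast markers (8 genes) summed to 1782 to 1989 CPM in sham, 2647 to 3569 in IgG and 2619 to 3048 in FG-3149, with 0 of 8 called between FG-3149 and IgG by edgeR, DESeq2 or limma voom and 1 at an unadjusted p under 0.05. Markers of activated fibroblasts (6 genes) summed to 51.2 to 59.9 CPM in sham, 709.7 to 1421 in IgG and 447 to 652 in FG-3149. The infarcted groups did not overlap there, and Postn was the largest part of the sum in both (544 ± 175 CPM in IgG and 292 ± 45.2 in FG-3149). Between them 1 of 6 was called by edgeR and by limma voom, and 2 by DESeq2, where edgeR called 1.07% of all genes. The one called by edgeR was Cthrc1 (log2 -1.17 ± 0.28, edgeR adjusted p = 0.0491), while Postn had -0.90 ± 0.20 (edgeR adjusted p = 0.0688). Markers of cartilage, tendon and valve (8 genes) summed to 5.69 to 8.78 CPM in sham, 88.1 to 227 in IgG and 63.5 to 193 in FG-3149. In the infarcted groups most of this sum came from Comp (107 ± 53.1 CPM in IgG and 94.8 ± 47.6 in FG-3149), which was at 0.609 ± 0.352 CPM in sham. Their part in the differences of Lum and Aspn was not tested.

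The genes whose profile over the 13 libraries was nearest to each member, by the root mean square (RMS) difference of log2 CPM centred on each gene's mean, are given as a description. Lum was nearest to Cd9, Anxa2 and Gpc6 (RMS 0.12 each), Aspn to Sulf1, Vim and Anxa1 (0.14 to 0.15) and Dcn to Eef1a1, C1s and Rnase4 (0.08 to 0.09). Bgn was nearest to Ptgis, Serpinf1 and Col14a1 (0.07 to 0.12), and Prelp to the matrix genes Col1a2, Adamts2 and Fn1 (0.10 to 0.13). Fmod had no gene as near in absolute terms, with Col8a2 at 0.32 as the closest. The RMS grows with a gene's own spread, and its median over all tested genes outside the members was 2.61 for Fmod and 0.45 for Lum. Among the members, Lum and Dcn were nearest to each other (0.16), then Lum and Aspn (0.23), while Aspn was 0.61 from the adjacent Omd and 0.71 from Ogn, the next gene after it.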

How the data were processed

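Per the labels' protocols, 500 ng of total RNA per sample entered a stranded mRNA library preparation, and the 13 libraries were read with single reads of 75 bases on 1 flow cell. The authors deposited estimated counts per gene, transcript and exon, without normalization, and 79.4% of gene values above 0 were whole numbers to within 0.01. They also deposited RPKM values per transcript, scaled to transcript length and library total. The build was mm10, per the submitters' processing notes. The aligner and counting tool, and how they treated strand and multiply matching reads, are not given in the sources used here. Each library's counts matched its own RPKM column best (13 of 13).

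Gene-level estimated counts were rounded, and 379 entries repeating the symbol of a stronger entry were left out (0.0% of reads). In R 4.3.3 with edgeR 4.0.16, genes were kept by filterByExpr (13434), scaled by TMM and fitted over all 13 libraries by the robust quasi-likelihood method without covariates, tested with glmQLFTest and adjusted by Benjamini-Hochberg. The SE is the absolute log2 fold change divided by the square root of F. Log2 CPM for profiles used a prior count of 2. Alternatives used DESeq2 1.42.0, limma 3.58.1, other scalings, filters and RPKM, and left out each library in turn. The fit was tested on simulated data. P-values weigh a difference between groups against the spread between these libraries, which the fit estimates with information shared across genes.

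The members and gene lists were chosen with earlier results of these data known. Named genes are all members, the other family genes, Ctgf, overlapping genes, up to 4 genes per list with the smallest p in the contrast described, and the 3 nearest profiles per member, of which some are given. Comp, Postn and Cthrc1 were named after their values were seen. The share of reads in the 5′ exons used genes with 1 transcript, at least 4 exons and 300 or more counts in every library. Promoter sequences are from RefSeq (GRCm38.p6).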

Additional observations from a re-analysis of the deposited data

Results flagged for a closer look

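In 3 of 22 groups of 5 libraries tested (9 members and both Dcn shares, in IgG and in FG-3149), 1 library stood apart from the other 4 by Dixon's test at the 95% level, which flags about 1 in 20 groups by chance. Ogn was lowest in IgG replicate 4, at 120.3 CPM, with the other 4 IgG libraries at 151 to 159.95 CPM. Omd was highest in FG-3149 replicate 1, at 8.29 CPM, with the others at 5.09 to 5.68 CPM. Prelp was highest in IgG replicate 2, at 259.5 CPM, with the others at 133 to 157 CPM.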

How the results depend on the processing

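The calls of Lum and Aspn between FG-3149 and IgG held in all 22 alternatives run. The number of genes called between FG-3149 and IgG was 144, and it was 83 with only these 2 groups in the fit, 281 with DESeq2, and 68 to 271 when 1 library was left out. It passed 1.5 times in either direction without IgG replicate 1 (271), IgG replicate 2 (68), IgG replicate 5 (90), FG-3149 replicate 3 (76), FG-3149 replicate 4 (74) or FG-3149 replicate 5 (84). The cause was not tested. Members called there numbered 2, and 2 to 3 with 1 library left out. The FG-3149 against IgG log2 fold change of Prelp ran from -0.27 (without FG-3149 replicate 1) to 0.028 (without IgG replicate 2) with 1 library left out, a change of sign. The Dcn share of the upstream start, 3.86 percentage points higher in FG-3149 by the deposited transcript counts, was -4.41 by first exon counts (an alternative chosen after seeing the data), and 2.20 to 4.56 with 1 library left out. The replicate numbers are not said to pair animals. Same-numbered FG-3149 and IgG libraries had correlations of 0.178, 0.133, -0.0235, 0.0157 and 0.0585, and 2 of 5 correlated best with their own number. With the replicate number as a block, 4139 genes were called for IgG against sham, 3576 for FG-3149 against sham and 215 for FG-3149 against IgG. Members called there numbered 7, 8 and 3. The added ones were Podn for FG-3149 against sham and Dcn for FG-3149 against IgG (edgeR adjusted p = 0.0259). No scaling moved the median of all genes by over 0.1. Depth limits Fmod (6 to 10 counts), Chad (3 to 5 counts) and Col12a1 (mean 0.567 CPM) in sham. It also limits Cthrc1 in FG-3149 (13 to 30 counts) and the first exons.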
